A study of Mus musculus with 8 samples.

Results

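Prdm16 and Mecom are the 2 genes described here, out of 55291 genes in the count table, and were picked by symbol as paralogous PR-domain factors of blood stem cells. They were proposed because of their levels in KO and FL cells, so their own differences are given as a description, with no test. The RNA came from leukaemic granulocyte-macrophage progenitors (L-GMP) of bone marrow, which the labels class as leukaemia stem cells. The cells were sorted as Lin-, Sca-1-, c-Kit+, CD16/32+ and CD34+ from mice with acute myeloid leukaemia driven by the fusion oncogene MLL-AF9. KO libraries (4) came from mice of genotype Dekfl/fl,MX1-Cre, and FL libraries (4) from Dekfl/fl mice, so both groups carry MLL-AF9 and floxed Dek alleles and only KO carries MX1-Cre. MX1-Cre is an interferon-inducible recombinase transgene that acts in blood cells and in other tissues, and its own effect cannot be told apart from that of Dek loss. The labels give neither the age of the mice, nor how MLL-AF9 was introduced. They also leave unsaid whether each library had its own mouse and its own leukaemia; the p-values therefore rest on differences among libraries that may be technical replicates.

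Prdm16 and Mecom encode large zinc finger proteins that are built alike. In each, a PR domain related to histone methyltransferase domains is followed by a pair of zinc finger clusters, and both genes can also give a shorter protein that lacks the PR domain. The long product of Mecom is MDS1-EVI1 and the short one is EVI1, named after a viral integration site in mouse leukaemias. In mice both genes are needed to maintain haematopoietic stem cells, and in human leukaemia both are targets of chromosome rearrangements that raise the short forms. The counts are per gene, so long and short forms could not be told apart here.

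Prdm16 lies on chromosome 4 from 154316125 to 154636873 and Mecom on chromosome 3 from 29951296 to 30548008 (mm10, both protein coding, both on the minus strand). RefSeq places 1 start for Prdm16 in the table of promoters used, and 2 starts for Mecom that are 497 kb apart, the distal one for the long form and an internal one. The 250 bases before each of these starts are shown because a gene that is nearly silent in 1 group and a paralog that is not can be compared there. They are taken from RefSeq on GRCm38.p6, the build of mm10, and read 5′ to 3′ on the minus strand. Capitals mark the longest run of letters shared by Prdm16 with the distal start of Mecom, and the longest run shared by both starts of Mecom.
Prdm16, chr4:154636874-154637123: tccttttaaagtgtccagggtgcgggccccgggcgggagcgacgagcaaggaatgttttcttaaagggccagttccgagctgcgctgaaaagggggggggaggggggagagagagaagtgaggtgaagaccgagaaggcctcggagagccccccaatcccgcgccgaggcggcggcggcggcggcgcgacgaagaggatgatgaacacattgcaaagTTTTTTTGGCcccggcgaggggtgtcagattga
Mecom distal start, chr3:30509760-30510009: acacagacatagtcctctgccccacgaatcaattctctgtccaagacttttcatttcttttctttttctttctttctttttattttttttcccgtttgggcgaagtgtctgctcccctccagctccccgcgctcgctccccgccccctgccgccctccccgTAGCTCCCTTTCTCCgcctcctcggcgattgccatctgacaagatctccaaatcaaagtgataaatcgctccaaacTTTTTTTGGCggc
Mecom internal start, chr3:30013205-30013454: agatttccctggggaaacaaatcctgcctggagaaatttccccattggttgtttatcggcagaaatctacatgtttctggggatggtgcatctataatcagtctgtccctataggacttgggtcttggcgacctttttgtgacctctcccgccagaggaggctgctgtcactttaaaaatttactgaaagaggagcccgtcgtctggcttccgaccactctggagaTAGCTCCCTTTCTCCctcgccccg

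The GC content of these stretches was 62.4% for Prdm16, 50.8% for the distal and 50.4% for the internal start of Mecom. Just inside the transcripts, Prdm16 and the distal start of Mecom share a run of 24 bases, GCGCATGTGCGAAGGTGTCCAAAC, at bases 10 to 33 after the start of Prdm16 (chr4:154636841-154636864) and 27 to 50 after that of Mecom (chr3:30509710-30509733). Of 32851 windows from 250 bases before to 50 after a start, 2 hold this run, the ones of these genes. In Mecom the run stops at base 50, where the window ends, so the shared stretch may be longer than 24 bases. The 15-base run before both Mecom starts likewise occurs before 2 of the 32851 starts, both of them in Mecom, and the 10-base run of Prdm16 and Mecom before 14. Motifs were searched on both strands of the same 250 bases. The letters TGACAG, known for MEIS proteins, are found before the internal start of Mecom, as they are before 15.9% of all starts. TGATTNAT for PBX-HOX dimers (2.82% of all starts), GATAAG for GATA factors (6.55%) and GAAGATGAG for the second zinc finger cluster of EVI1 (0.347%) match in none of the 3 stretches. The extended GATA-like motif of the first zinc finger cluster of EVI1, found before 0.0517% of all starts, matches in none either. These are matches of letters only, and no factor's binding was measured.

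Library totals were 33941940 to 49736592 counts in KO and 44086524 to 58660705 in FL. KO libraries held reads of 30606 to 37801 genes and FL libraries of 24125 to 26053. These ranges do not overlap, so a fit with detected genes as a covariate cannot cleanly separate that number from genotype. Levels are in CPM (counts scaled to library size), adjusted by TMM, a set of factors that aligns the bulk of genes between libraries. Dek itself was at 16.7 to 30.9 CPM in KO and 129 to 178 CPM in FL, in the direction of the labels. Of the granulocyte-macrophage progenitor genes Mpo, Elane, Prtn3, Ctsg, Ms4a3, Cebpe, Gfi1, Irf8 and Csf1r, the lowest on average was Gfi1, at 20.2 CPM in KO and 15.9 CPM in FL, so all 9 were well expressed in both groups. Among the sort markers, Kit averaged 153 CPM in KO and 91.1 CPM in FL, Cd34 460 CPM in KO and 709 CPM in FL, and Fcgr3, for CD16, 361 CPM in KO and 644 CPM in FL. Ly6a, for Sca-1, averaged 1.63 CPM in KO and 0.341 CPM in FL.

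Prdm16 was nearly silent in KO L-GMP and well expressed in FL L-GMP, whereas Mecom was expressed in both and was higher in KO. KO libraries 1 to 4 had 8, 14, 28 and 4 reads of Prdm16, or 0.148, 0.305, 0.677 and 0.0647 CPM. FL libraries 1 to 4 had 1095, 1035, 998 and 697 reads, or 24.3, 25.7, 24.7 and 17.4 CPM. The lowest FL library thus stood far above the highest KO library, and replicate 4 was the lowest of the 4 FL libraries. The means were 0.299 ± 0.271 CPM in KO and 23.0 ± 3.80 CPM in FL (SD, n = 4 each), with a log2 fold change of KO over FL of -6.34 in the fit of all genes, or 81.3-fold lower. KO replicates 3 and 2, with the most Prdm16 reads, were also the KO libraries with the most genes detected, 37801 and 36946. The log2 fold change was -7.11 without KO replicate 3 and -7.75 without both, and the part of library breadth in these few reads was not tested.

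Mecom had 55.9, 71.3, 46.4 and 62.4 CPM in KO libraries 1 to 4, from 3013, 3276, 1920 and 3853 reads. It had 31.0, 26.8, 13.7 and 29.6 CPM in FL libraries 1 to 4, from 1397, 1078, 551 and 1186 reads. The groups did not overlap, and FL replicate 3 was the lowest of the FL libraries. The means were 59.0 ± 10.5 CPM in KO and 25.3 ± 7.94 CPM in FL (SD, n = 4 each). Mecom thus had a log2 fold change of 1.23, or 2.34-fold higher, with 1.0 without FL replicate 3, and 1.81 when libraries were scaled by their totals in place of TMM. That scaling moves the median log2 fold change of all tested genes to 0.64, against 0.05 with TMM, so Mecom moved about as far as the median gene. Among the 17418 genes that passed the count filter, 15.9% had every KO library below every FL library as Prdm16 did, and 15.0% had every KO library above as Mecom did.

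**Figure D1:**
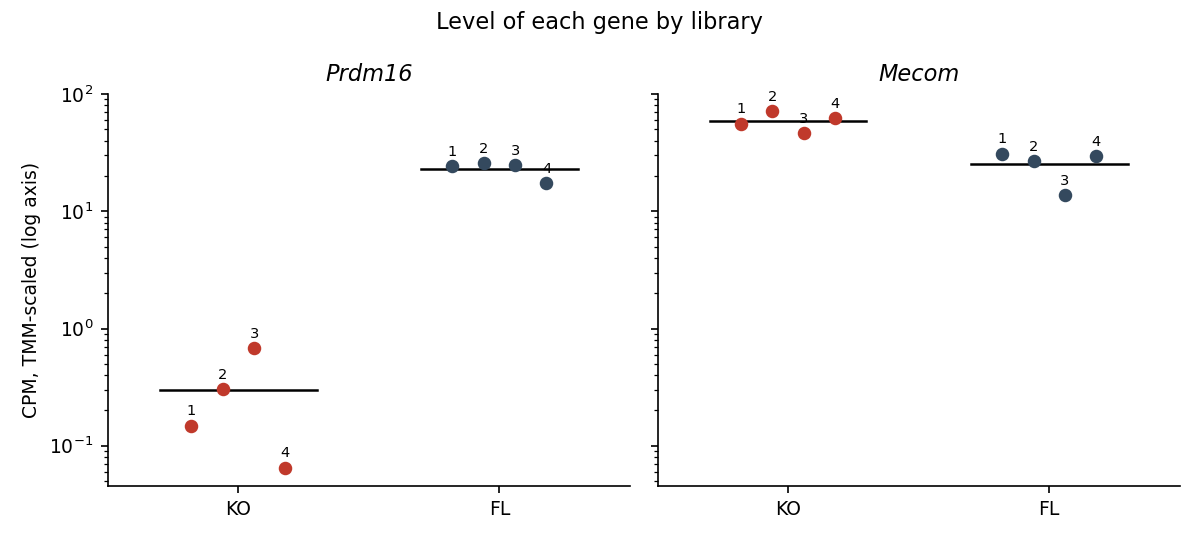
TMM-scaled CPM of Prdm16 (left) and Mecom (right) in each library, on a log axis; points are libraries marked with their replicate number and lines are group means of 4. Prdm16 lies between 0.0647 and 0.677 CPM in KO and between 17.4 and 25.7 CPM in FL, and Mecom between 46.4 and 71.3 CPM in KO and between 13.7 and 31.0 CPM in FL.

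In the order of all tested genes by level, from the highest, Prdm16 stood at places 14198 to 17284 of 17418 in KO libraries and 5826 to 7107 in FL libraries. Mecom stood at places 2539 to 3905 in KO and 5273 to 7550 in FL. Only 2 of the tested genes had a log2 fold change below that of Prdm16, while 1663 had one above that of Mecom. The spread between libraries of a group was ordinary for Mecom in KO, with a coefficient of variation of 17.8% beside a median of 17.8% over tested genes. In FL it was 31.4% for Mecom and 16.5% for Prdm16, beside a median of 22.2%. In KO it was 90.8% for Prdm16, at 4 to 28 reads per library.

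Per kilobase of exon the paralogs could be set side by side. In KO libraries 1 to 4, Mecom had 4.50, 5.74, 3.74 and 5.02 RPKM (CPM per kilobase of merged exons), while Prdm16 had 0.00695 to 0.0726 RPKM, with ratios of Mecom to Prdm16 of 51.4 to 722. In FL libraries 1 to 4, Mecom had 2.49, 2.16, 1.10 and 2.38 RPKM, while Prdm16 had 2.61, 2.76, 2.65 and 1.87 RPKM. Neither was the higher in every FL library, and the ratio ran from 0.414 in replicate 3 to 1.28 in replicate 4. Prdm16 therefore made up 0.138% to 1.91% of the summed RPKM of the pair in KO, and 43.9% to 70.7% in FL. The sum itself was 4.78 ± 0.827 RPKM in KO and 4.51 ± 0.621 RPKM in FL (SD, n = 4 each), with overlapping ranges of 3.81 to 5.77 RPKM in KO and 3.75 to 5.10 RPKM in FL. By total counts the sum was 5.89 ± 1.11 RPKM in KO and 3.72 ± 0.903 RPKM in FL, with no overlap between groups.

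**Figure D2:**
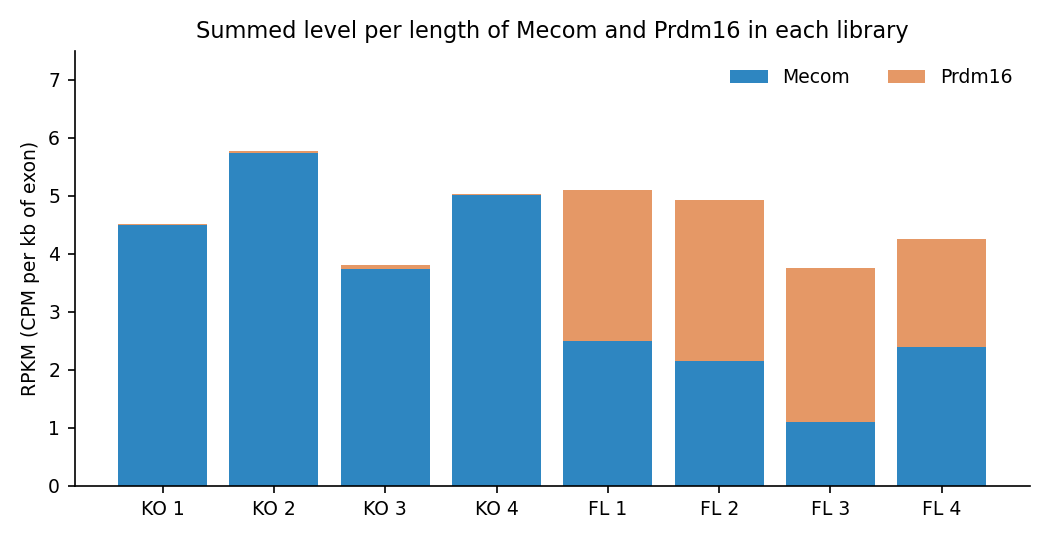
Level per kilobase of exon (RPKM, TMM-scaled) of Mecom (blue) and Prdm16 (orange), stacked, in each of the 4 KO and 4 FL libraries. The bars reach 3.81 to 5.77 RPKM in KO, nearly all Mecom, and 3.75 to 5.10 RPKM in FL, where Prdm16 makes up 43.9% to 70.7%.

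Transcripts that overlap the members were read next, since the sources used here do not say whether reads were counted by strand. Prdm16 overlaps 3 other annotated genes of the table, all on the opposite strand, and these held 21 reads over all 8 libraries. Prdm16os, an antisense RNA named after Prdm16, had 8 reads in KO replicate 2 and 0 in the other libraries. Mecom overlaps 7, among them Mecomos, an antisense RNA that shares 81 exonic bases with Mecom (0.652% of the exonic bases of Mecom). Mecomos had 1.82, 1.89, 1.14 and 1.29 CPM in KO libraries 1 to 4 and 0.643, 0.622, 0.397 and 0.799 CPM in FL libraries 1 to 4. It rose with Mecom, without overlap between groups, by a log2 fold change of 1.32 (SE 0.32, edgeR adjusted p = 0.011). Its reads came to 2.08% to 3.25% of those of Mecom in KO and 2.08% to 2.90% in FL, so the ratio of the pair showed no separation between groups. Without strand, reads of Mecomos and of unspliced Mecom transcripts cannot be told apart. The 7 genes overlapping Mecom, of which 6 passed the filter, summed to 8.16 to 20.3 CPM in KO and 3.35 to 11.2 CPM in FL, and Mecomos was the 1 called by edgeR at an adjusted p under 0.05, as were 27.9% of all tested genes. Its call was lost without KO replicates 2 and 3 together (adjusted p = 0.058). It was also lost with detected genes per library, a number that separates KO from FL, as a covariate (adjusted p = 0.39).

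The PRDM family shares the PR domain and has members with histone methyltransferase activity. Of the other 15 genes listed, counting the related FOG factors Zfpm1 and Zfpm2, 7 passed the filter and 0 were called by edgeR (adjusted p under 0.05; 0 also at an unadjusted p under 0.05), and 0 by DESeq2 or limma-voom (2 at an unadjusted p under 0.05 by each), against 27.9% of all 17418 tested genes. Their median log2 fold change was 0.19, beside 0.05 over all tested genes. Under total-count scaling 5 of these 7 were called, all higher in KO, beside 9898 of all 17418 tested genes, 9012 of them higher. Prdm2 (RIZ, a histone H3K9 methyltransferase) was the most abundant of them, at 37.8 ± 4.84 CPM in KO and 33.2 ± 7.76 CPM in FL (SD, n = 4 each). Prdm15 averaged 16.6 CPM in KO and 12.5 CPM in FL, and Prdm4 16.2 CPM in KO and 13.2 CPM in FL. Prdm4 was at 26.5 CPM in FL replicate 4 and between 6.79 and 10.7 CPM in the other FL libraries, and without that replicate it was called higher, with a log2 fold change of 0.86 (edgeR adjusted p = 0.013).

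Prdm10 was at 5.73 to 7.98 CPM in KO and 4.29 to 5.67 CPM in FL, with a log2 fold change of 0.36 (SE 0.18, edgeR adjusted p = 0.16). It was the only 1 of these 7 whose groups did not overlap, beside 30.8% of all tested genes. Prdm9, the factor that directs meiotic recombination, averaged 5.87 CPM in KO and 5.81 CPM in FL, and Prdm11 averaged 3.33 CPM in KO and 3.66 CPM in FL. Zfpm1, the partner of GATA1 in erythroid and megakaryocyte cells, was at 0.0967 to 0.522 CPM in KO and 0.249 to 2.22 CPM in FL. The other 8 did not pass the filter. Among them Prdm1 (BLIMP1), a regulator of plasma cells, had 3 to 34 reads in KO and 0 to 8 in FL.

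**Figure D3:**
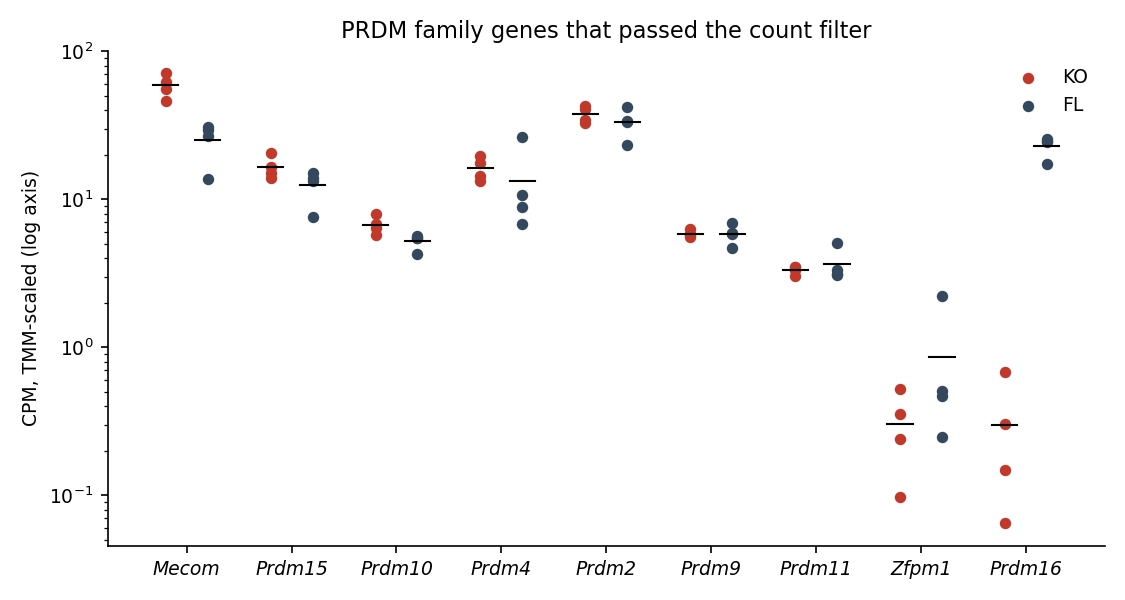
TMM-scaled CPM (log axis) of Prdm16, Mecom and the 7 other PRDM and FOG genes that passed the count filter, ordered by log2 fold change, with KO (red) left of FL (blue); points are libraries and lines are means of 4. Mecom, Prdm10 and Prdm16 are the genes whose groups do not overlap, as is the case for 30.8% of all tested genes.

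The neighbours of each gene were compared up to 1 Mb away. Around Prdm16, 18 of the 34 protein-coding genes in the table passed the filter. Of these, 4 were called, 2 higher and 2 lower in KO (22.2%, beside 27.9% of all genes). The median log2 fold change of the 18 was 0.025. Under total-count scaling 12 were called, all higher, beside 9898 of all 17418 tested genes, 9012 of them higher. The nearest tested genes on either side were Wrap73, a centriolar satellite protein gene, at 28.0 ± 1.40 CPM in KO and 28.0 ± 1.74 CPM in FL, and Tnfrsf14, the receptor HVEM, at 17.9 ± 3.88 CPM in KO and 17.7 ± 7.81 CPM in FL (SD, n = 4 each). Wrap73 had a log2 fold change of 0.0025 (SE 0.11, edgeR adjusted p = 0.99). Tnfrsf14 had 0.017 (SE 0.28, adjusted p = 0.97). Both were called higher under total-count scaling, at 0.58 and 0.65.

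Closer still, Megf6 had 79, 84, 34 and 8 reads in KO libraries 1 to 4 and 0, 0, 6 and 1 in FL libraries 1 to 4. This gene, which encodes a protein with EGF-like repeats, ends 40412 bases from Prdm16, did not pass the filter, and was singled out after its values were seen. The calls lay 437237 bases or more away. Gnb1, a G protein beta subunit, was lower, at 213 ± 11.9 CPM in KO and 303 ± 19.4 CPM in FL (log2 fold change -0.50, SE 0.10, edgeR adjusted p = 0.0041), and Rer1, a Golgi retrieval receptor, had a log2 fold change of -0.31 (SE 0.10, adjusted p = 0.040). Under total-count scaling Gnb1 and Rer1 had 0.091 and 0.28. Slc35e2, a transporter gene, was higher by 0.45 (SE 0.12, adjusted p = 0.018). The kinase gene Prkcz was higher by 1.77 with an adjusted p of 0.048 (SE 0.60). Prkcz rested on KO replicate 3 at 3.17 CPM and had 0.96 without it (adjusted p = 0.18). The calls of Rer1, Slc35e2 and Prkcz were lost when 1 of several single libraries was left out (adjusted p 0.051 to 0.18), those of all 4 genes without KO replicates 2 and 3 together.

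Around Mecom, 8 of 14 protein-coding genes passed the filter and 5 were called, 4 higher and 1 lower in KO (62.5%, beside 27.9% of all genes), with a median log2 fold change of 0.45. Under total-count scaling all 8 were called, 7 higher and 1 lower, beside 9898 of all 17418 tested genes, 9012 higher and 886 lower. All 8 lie on the side of the distal start. Mynn, a zinc finger gene and the nearest tested, was at 39.8 ± 1.23 CPM in KO and 32.1 ± 5.23 CPM in FL (log2 fold change 0.31, SE 0.13, edgeR adjusted p = 0.090) and was called higher without FL replicate 2. Gpr160, an orphan receptor gene, was higher at 111 ± 7.48 CPM in KO against 79.2 ± 11.7 CPM in FL (0.49, SE 0.12, adjusted p = 0.012). Skil, which encodes SnoN, a repressor of SMAD signalling and a relative of the EVI1 partner SKI, was higher at 15.0 ± 3.41 CPM in KO against 7.01 ± 1.40 CPM in FL (1.10, SE 0.21, adjusted p = 0.0029). Phc3, a Polycomb subunit gene, was higher by 0.40 (SE 0.13), with an adjusted p of 0.037. Prkci, an atypical kinase gene, was higher by 0.58 (SE 0.16), with an adjusted p of 0.018. Cldn11, a tight junction gene, was lower at 0.858 ± 0.382 CPM in KO against 3.06 ± 1.61 CPM in FL (-1.84, SE 0.46, adjusted p = 0.012). Skil and Cldn11 kept their calls in each fit that left out libraries, Cldn11 at -2.48 without KO replicates 2 and 3 together, where Gpr160, Phc3 and Prkci lost theirs (adjusted p 0.080 to 0.19). The call of Phc3 was lost when any library but FL replicate 1 or KO replicate 3 was left out, and Prkci lost its call when FL replicate 1, FL replicate 3 or KO replicate 2 was left out, with adjusted p of 0.052 to 0.12 for both genes. With detected genes per library as a covariate, 0 neighbours of either gene were called, at an unadjusted p under 0.05 for 1 near Prdm16 and 2 near Mecom. That covariate separates KO from FL, so these lost calls cannot be assigned to it or to genotype.

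**Figure D4:**
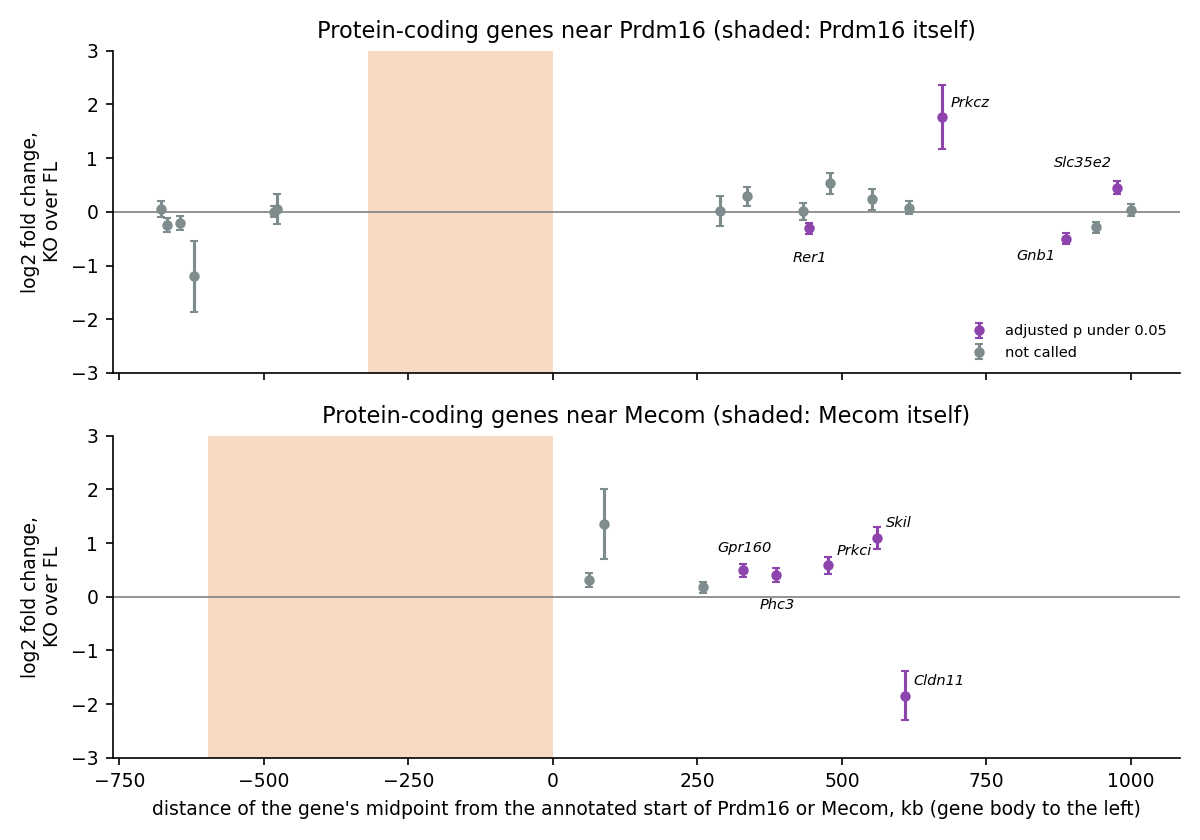
Log2 fold change of KO over FL (edgeR, bars are standard errors) of tested protein-coding genes within 1 Mb of Prdm16 (top) and Mecom (bottom), by distance from the annotated start; the shaded span is the gene itself and purple marks an adjusted p under 0.05. The genes nearest to Prdm16 lie close to 0, and 4 of the 5 genes called near Mecom, all 5 on the side of its start, are above 0.

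The cofactors through which PRDM16 and EVI1 act include the CtBP corepressors, H3K9 methyltransferases, histone deacetylases and SKI and SMAD proteins. All 30 listed genes passed the filter, and 12 were called, 10 higher and 2 lower in KO (40.0%, beside 27.9% of all genes; 13.0% of all genes were called higher and 14.9% lower). Their median log2 fold change was 0.14, beside 0.05 over all genes. Under total-count scaling 23 were called, all higher, beside 9898 of all 17418 tested genes, 9012 of them higher. Leaving out KO replicate 2 gave 6 calls, all higher. Smad3, a signal transducer of TGF-beta that EVI1 binds, was at 39.3, 33.6, 27.3 and 27.2 CPM in KO libraries 1 to 4 and 17.0, 10.6, 15.8 and 15.6 CPM in FL libraries 1 to 4. It rose by a log2 fold change of 1.11 (SE 0.18, edgeR adjusted p = 0.0013), close to the value of Skil above. Setdb1, which encodes an H3K9 methyltransferase, was higher by 0.58, with an adjusted p of 0.0041 (SE 0.12). Mapk8, for the kinase JNK1 that EVI1 can inhibit, was higher by 0.57, with an adjusted p of 0.0060 (SE 0.12). The groups overlapped for neither.

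The other 6 called higher were the methyltransferases Ehmt1 and Dnmt3a, the acetyltransferases Crebbp and Ep300, and Gata1 and Pparg, transcription factors that averaged 0.745 and 0.673 CPM in KO. Those called lower were Rbbp4, a histone-binding subunit of corepressor complexes, and Spi1, the myeloid factor PU.1, whose groups overlapped. The corepressor genes Ctbp1 and Ctbp2 were not called. Ctbp2 averaged 14.7 ± 1.71 CPM in KO and 11.3 ± 3.47 CPM in FL, and Ctbp1 60.4 ± 8.22 CPM in KO and 119 ± 121 CPM in FL (SD, n = 4 each), where libraries ran from 45.6 to 298 CPM. Ski, and the deacetylase genes Hdac1, Hdac2 and Hdac3, had log2 fold changes of -0.15 to 0.23 and were not called.

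A list of genes reported to depend on PRDM16 or EVI1 in blood or fat cells, compiled from general knowledge, held 21, of which 13 passed the filter and 4 were called, 1 higher and 3 lower (30.8%, beside 27.9% of all genes; median log2 fold change -0.085, beside 0.05). Under total-count scaling 7 were called higher and 1 lower, beside 9012 higher and 886 lower of all 17418 tested genes. Fbp1, which encodes the gluconeogenic enzyme fructose-1,6-bisphosphatase, was higher, at 240, 256, 142 and 248 CPM in KO libraries 1 to 4 against 55.4, 24.7, 36.1 and 19.4 CPM in FL libraries 1 to 4. Its log2 fold change was 2.71 (SE 0.32, edgeR adjusted p = 2.2e-04), and its call held under all 18 alternatives, a fit with detected genes as a covariate among them. Angpt1, a ligand of the stem cell receptor TIE2, was lower, at 9.51 to 16.7 CPM in KO and 20.9 to 40.5 CPM in FL (-1.40, SE 0.24, adjusted p = 0.0016).

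Gata2, a stem cell factor whose mouse gene EVI1 activates, was lower on average while Mecom was higher, at 42.1 ± 7.28 CPM in KO and 67.8 ± 12.5 CPM in FL (SD, n = 4 each; log2 fold change -0.68, SE 0.16, edgeR adjusted p = 0.010). The groups overlapped, and the gene was no longer called when libraries were scaled by totals (-0.11) or when KO replicates 2 and 3 were both left out (-0.50, adjusted p = 0.13). Mfn2, the mitochondrial fusion gene that mouse stem cells need Prdm16 to express, had -0.41 (SE 0.13, adjusted p = 0.034), but 0.17 under total-count scaling, and it was not called without FL replicate 1, FL replicate 3 or any KO library but replicate 3, with adjusted p of 0.066 to 0.083. Hgf, a growth factor gene lowered by Prdm16 loss in mouse neural stem cells, averaged 12.7 CPM in KO and 16.7 CPM in FL and was not called. Fli1, Erg and Itga6 had log2 fold changes of -0.12 to 0.27 and were not called. The brown fat genes that PRDM16 switches on in fat cells (Ucp1, Cidea, Ppargc1a, Ppara and Elovl3) did not pass the filter, at means of 0.360 CPM or less in each group.

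Of 20 stem cell genes, 12 passed the filter and 5 were called, 4 higher and 1 lower in KO (41.7%, beside 27.9% of all genes). The median log2 fold change of the 12 was 0.44. Under total-count scaling 7 were called, all higher, beside 9898 of all 17418 tested genes, 9012 of them higher. Mllt3, the mouse AF9 gene, averaged 2.43 ± 0.300 CPM in KO and 0.681 ± 0.117 CPM in FL (SD, n = 4 each), with no overlap (log2 fold change 1.83, SE 0.26, edgeR adjusted p = 5.6e-04). Mllt3 is also a part of the MLL-AF9 fusion, and reads of the mouse gene and of a fusion transgene cannot be told apart here. Ifitm1, an interferon-inducible membrane protein gene, was at 14.6, 6.61, 1.79 and 13.6 CPM in KO libraries 1 to 4 and 0.111 to 0.821 CPM in FL (4.28, SE 0.70, adjusted p = 0.0014), with 4.90 without KO replicates 2 and 3 together. Meis1, a homeobox cofactor, had 0.50 (SE 0.17, adjusted p = 0.044), and Ctnnal1, a catenin-like gene, -0.82 (SE 0.25, adjusted p = 0.030). Each lost its call when 1 of several single libraries was left out (adjusted p 0.051 to 0.12). Procr, for the endothelial protein C receptor, was the other gene called higher, at 0.242 to 1.42 CPM in KO and 0.0444 to 0.350 CPM in FL. Its groups overlapped (log2 fold change 1.85, SE 0.63, edgeR adjusted p = 0.048). Hlf, a stem cell transcription factor often expressed with Mecom, averaged 0.605 CPM in KO and 0.195 CPM in FL and was not called, and Tek, Fgd5 and Slamf1 did not pass the filter, at means of 0.360 CPM or less.

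**Figure D5:**
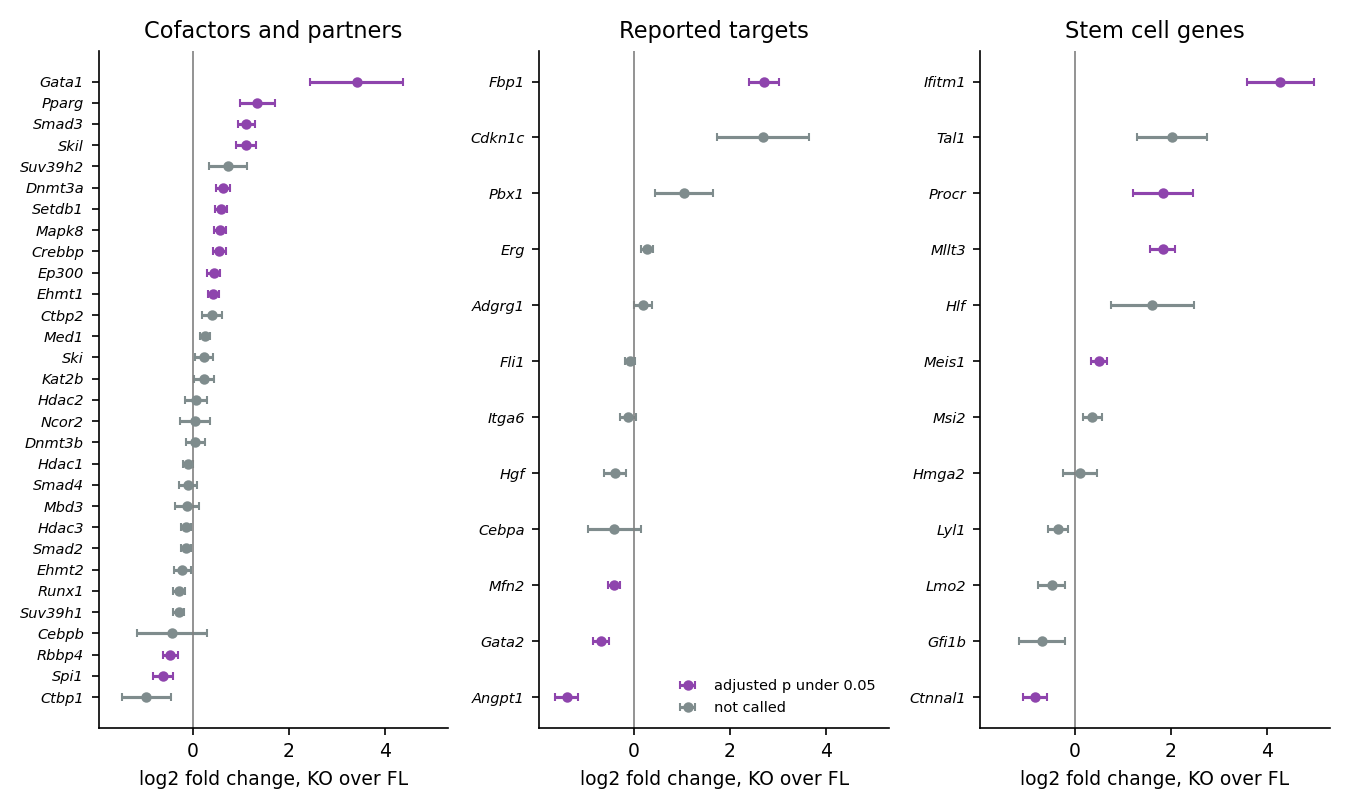
Log2 fold change of KO over FL (edgeR, bars are standard errors) of tested genes: 30 cofactors and partners of PRDM16 and EVI1, 12 of the 13 reported targets and 12 stem cell genes; purple marks an adjusted p under 0.05. The called genes are 10 higher and 2 lower, 1 higher and 3 lower, and 4 higher and 1 lower.

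Prdm16 and Mecom are also expressed outside progenitors, so markers of other cells were summed; the calls among them stand beside 27.9% of all tested genes called, 13.0% higher and 14.9% lower. Of 8 endothelial genes 4 passed the filter and 1 was called (Tie1, higher), a share of 25.0% that lies near that of all genes. Their sums were 203 to 350 CPM in KO and 201 to 371 CPM in FL, nearly all from Pecam1, which progenitors express as well, and the defining gene Cdh5 averaged 0.0750 CPM in KO and 0.0707 CPM in FL. Of 7 megakaryocyte genes 4 passed, with Gp9 and Vwf called higher and Itga2b lower (75.0%). Their sums were 5.99 to 12.1 CPM in KO and 9.14 to 14.5 CPM in FL, with Pf4 at means below 0.1 CPM and Gp1bb at 0 in every library. Of 7 stroma and fat genes 3 passed, with Cxcl12 called higher and Pdgfrb lower (66.7%), and sums of 3.30 to 10.5 CPM in KO and 16.7 to 28.1 CPM in FL. Pdgfrb made up most of the sum in FL, at 15.3 to 26.4 CPM, and was at 1.65 to 8.11 CPM in KO. Of 8 mast cell and basophil genes 4 passed, with Ms4a2 called higher and Cpa3 lower (2 of 4), and sums of 41.8 to 83.2 CPM in KO and 132 to 270 CPM in FL. Of 7 erythroid genes 4 passed and 1 was called, higher (25.0%), with sums of 6.53 to 25.6 CPM in KO and 5.86 to 10.7 CPM in FL. Of 7 B cell genes 4 passed, with 1 called higher and 1 lower (2 of 4), and sums of 78.8 to 103 CPM in KO and 89.5 to 119 CPM in FL. Of 6 T and NK cell genes 3 passed and 1 was called, higher (33.3%), with sums of 406 to 545 CPM in KO and 304 to 531 CPM in FL.

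Granulocyte markers varied widely between KO libraries. Of 8 eosinophil genes 7 passed and 6 were called, all higher in KO (85.7%), with sums of 262, 915, 1302 and 246 CPM in KO libraries 1 to 4 and 21.4, 106, 42.6 and 114 CPM in FL libraries 1 to 4. All 8 late neutrophil genes passed, with Retnlg called higher and Mmp8 lower (25.0%). Their sums were 196, 404, 2503 and 385 CPM in KO libraries 1 to 4 and 790, 338, 164 and 226 CPM in FL libraries 1 to 4, and S100a8 alone was at 1162 CPM in KO replicate 3. KO replicate 3, the highest KO library in both sums, also has the most Prdm16 reads and the lowest Mecom level of the KO libraries. KO replicate 2 comes next in both sums and in reads of Prdm16, but has the highest Mecom level of the KO libraries, at 71.3 CPM. The part of other cells in the levels of Prdm16 and Mecom was not tested, and in bulk RNA fewer expressing cells and less RNA per cell cannot be told apart.

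The genes whose profile over the 8 libraries lay nearest to that of each member were listed by the root mean square difference of log2 CPM, each profile centred on its own mean, among 10906 genes with a mean of 1 CPM or more. Nearest to Prdm16 were Atp9a, a flippase relative (0.80 log2 units), Pbx3, the HOX cofactor in the title of the series (0.93), Slc15a2, a peptide transporter (0.97), Rap1gap, which switches off RAP1 (0.98), and Map10, a microtubule protein (0.99). Atp9a averaged 0.591 CPM in KO and 50.9 CPM in FL, and Pbx3 0.746 CPM in KO and 32.4 CPM in FL. Nearest to Mecom were the ciliary transport genes Ift122 (0.17) and Ttc21b (0.20), Armcx2 (0.17), the mast cell and melanocyte factor Mitf (0.20) and Fam120c (0.20). Ift122 averaged 13.0 CPM in KO and 6.06 CPM in FL, and all 5 had their lowest FL value in replicate 3, as Mecom did. The profile used to choose these genes includes that library, so the shared low value is favoured by the choice. Prdm16 and Mecom were 3.95 log2 units apart. The median distance was 3.29 for genes compared with Prdm16 and 0.79 for those compared with Mecom. Counted from the nearest, Mecom was at place 10502 of 10906 from Prdm16, and Prdm16 at place 10905 from Mecom. This distance restates the differences between KO and FL for which the 2 genes were proposed, so it is a description only.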

How the data were processed

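RNA of sorted L-GMP was amplified by the Geo-seq method and built into libraries by transposition, per the labels' protocols. The authors deposited raw read counts per gene symbol in 8 libraries, with columns named KO and WT. The WT columns were taken as the FL libraries. Bowtie 0.12.9, HTSeq 0.13.5, DESeq2 and mm10 are named in the submitters' processing notes, while the sheet name gives featureCounts; the strand setting is not given in the sources used here. Counts were tested with edgeR 4.0.16 (R 4.3.3; quasi-likelihood F test, TMM factors, filterByExpr, no covariate), with Benjamini-Hochberg adjustment over 17418 genes and a threshold of 0.05. Alternatives used DESeq2 1.42.0, limma 3.58.1 (voom with quality weights), other scalings and filters, a replicate block, the number of genes detected, and fewer libraries. The procedure was tested on simulated counts, where DESeq2 made false calls above its nominal rate. Of the symbols, 96.2% matched 1 gene of the GENCODE mm10 annotation, which gave loci and exon lengths. Precision is limited by 4 libraries a group, and amplified reads are not independent molecules.

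The members and lists were chosen with earlier results of these data known. Named by rule were the 4 members of each list with the smallest p, the nearest tested neighbours, called neighbours within 1 Mb, overlapping antisense genes, and the 5 genes most like each member; others are named as examples, chosen after their values were seen. Likeness used log2 CPM with a prior count of 2. Values of some list members are not reported here, though the counts over their lists include them.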

Additional observations from a re-analysis of the deposited data

Results flagged for a closer look

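Single libraries that stood apart from the other 3 of their group, by the gap to the nearest library relative to the range of the group, were found in 8 of 92 groups (46 genes, KO and FL); chance gives about 1 in 20. Neither Prdm16 nor Mecom was among them. A group without reads in any library cannot hold such a library, and a group with reads in a single library always does. The rate of 1 in 20 does not apply to groups of these kinds. Of the PRDM family, Prdm10 was low in FL replicate 3, at 4.29 CPM, and Prdm11 and Zfpm1 were high in FL replicate 4, at 5.10 and 2.22 CPM. Near Prdm16, Prkcz was high in FL replicate 4, at 0.625 CPM, and Prdm16os in KO replicate 2, at 0.174 CPM, its only library with reads. Fbp1 was low in KO replicate 3, at 142 CPM, still above every FL library. Of the genes most like the members, Rap1gap was low in FL replicate 2, at 4.65 CPM, and Ttc21b in FL replicate 3, at 2.48 CPM.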

How the results depend on the processing

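Prdm16 was lower and Mecom higher in KO under all 18 alternatives. For Prdm16 the log2 fold change was -9.79 with genes detected as a covariate and -5.77 under total-count scaling, the largest and smallest changes of the 18. It was -7.75 without KO replicates 2 and 3 together, and -7.11 to -5.98 without 1 library. The number of genes detected did not overlap between KO and FL, so changes under this covariate cannot be assigned to it or to genotype. For Mecom it was 1.81 under total-count scaling and 1.0 to 1.32 without 1 library. Of all genes, 4853 were called, and 3140 with at least 5 CPM required in 4 libraries, 205 with the covariate, 9898 by total counts (9012 higher, 886 lower; 2256 higher and 2597 lower with TMM), 2342 without KO replicates 2 and 3, and 3397 to 5033 without 1 library. In the order PRDM family, cofactors, targets, stem cell genes, Prdm16 neighbours and Mecom neighbours, the calls were 0, 12, 4, 5, 4 and 5. With the covariate they were 0, 0, 1, 1, 0 and 0 (at an unadjusted p under 0.05, edgeR, 0, 6, 3, 4, 1 and 2), by total counts 5, 23, 8, 7, 12 and 8, and without KO replicates 2 and 3 0, 6, 2, 3, 0 and 2. Without 1 library they were 0 to 2, 6 to 11, 3 to 5, 2 to 7, 2 to 6 and 3 to 5. Stem cell genes fell to 2 calls without KO replicate 1 or 2 and to 3 without FL replicate 1 or 3, Prdm16 neighbours to 2 without FL replicate 2 or KO replicate 1, 2 or 3, and Mecom neighbours to 3 without FL replicate 3 or KO replicate 2. Without a count filter 2 PRDM genes, 8 targets and 9 stem cell genes were called, and with at least 5 CPM 1 stem cell gene. Replicate numbers did not pair the libraries (correlations of deviations 0.019 to 0.047); with the replicate block Prdm16 had -6.50, Mecom 1.27, 4339 genes were called and 2 Prdm16 neighbours.

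Of 744 values of 42 named genes under alternatives, 610 kept direction and side of the threshold, 95 lost and 12 gained a call, and 27 changed sign. By total counts Prdm11 had 0.48, Mfn2 0.17, Rer1 0.28 and Gnb1 0.091. With the covariate Prdm9 had -0.085, Prdm10 -0.071 and Wrap73 -0.14; without a filter Prdm9 had -0.028, Wrap73 -0.042 and Tnfrsf14 -0.019; without KO replicates 2 and 3 Prdm9 had -0.025 and Wrap73 -0.032; by limma-voom Prdm9 had -0.038. Without 1 library the ranges were -0.092 to 0.091 for Prdm9, -0.22 to 0.048 for Prdm11, -0.047 to 0.038 for Wrap73 and -0.20 to 0.34 for Tnfrsf14. The causes were not tested.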
